A study of Mus musculus with 12 samples.

Results

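Globins carry oxygen in red blood cells, and their genes are among the most strongly transcribed in the body once a cell commits to the erythroid lineage. Mouse globin genes lie in an alpha-like and a beta-like cluster, and each cluster holds genes used in the early embryo and genes used from fetal life onwards. The first red cells of the mouse embryo arise in the yolk sac, circulate with their nuclei and make embryonic globins, Hba-x (zeta), Hbb-y (epsilon-y) and Hbb-bh1 (beta-h1), beside adult chains. Red cells from the fetal liver make the adult chains, Hba-a1 and Hba-a2 (alpha) and Hbb-bs and Hbb-bt (beta), and replace the first wave during later gestation. Alas2 is the erythroid form of the first enzyme of heme synthesis, and Epb42 encodes protein 4.2, which ties the red cell skeleton to its membrane.

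The members are these 9 genes, taken from a list by their symbols in GENCODE vM21, of 49315 genes in the files. All 9 passed the filter on low counts that left 16637 genes for testing. They were measured by RNA-seq in CD31+ cells sorted from forebrains of mouse embryos at E15.5, 1 embryo per library, so that p-values measure the spread between these embryos, in 4 wild-type, 4 Gpr124ΔC/ΔC and 4 Gpr124−/− embryos. Gpr124 (listed as Adgra2) encodes an adhesion receptor of brain endothelium that works with RECK in WNT7 signaling. The ΔC allele has a V5 tag and a stop codon put in frame behind the last transmembrane segment by CRISPR/Cas9, so that the receptor lacks its intracellular domain, and the null allele is a lacZ allele. Both mutants came from intercrosses of heterozygotes and carried their alleles in every cell. The gate kept CD31+ cells that were negative for CD140b, CD45 and the dead cell stain 7AAD. It held no erythroid marker.

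Gene counts summed to 13877572 in the shallowest library and 22551163 in the deepest. Adgra2 was at 28.3 to 51.1 TPM (transcripts scaled to gene length and library total) in wild type, 34.1 to 63.4 in Gpr124ΔC/ΔC and 4.03 to 6.29 in Gpr124−/−, so the null libraries match their labels, whereas the ΔC allele still gives a transcript and is not checked by this level. Endothelial genes were high in all libraries, and the 10 endothelial markers summed to 7334 to 16839 TPM. The noncoding gene Gm23935 took 12.5% of all TPM in wild-type replicate 2 and 14.1% in Gpr124ΔC/ΔC replicate 1, against 1.22% to 3.04% in the other 10 libraries. The embryo labels begin with a letter whose meaning is not given in the sources used here. Letter J covers wild-type replicates 1 and 2 and Gpr124ΔC/ΔC replicates 1 and 2, letter L covers wild-type replicate 4 and Gpr124ΔC/ΔC replicates 3 and 4, and letter K covers wild-type replicate 3 and Gpr124−/− replicate 1. Letter M covers Gpr124−/− replicates 2 to 4 and no other genotype.

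The coding sequences decide how well each globin can be counted, so the same stretch, coding bases 61 to 180, is shown for 5 of the 7 globin genes, from GENCODE transcripts on GRCm38. Capitals mark bases that differ from the adult gene of the same cluster, Hba-a1 or Hbb-bs. Hba-a2 and Hbb-bt are left out because this stretch is the same in them as in Hba-a1 and in Hbb-bs.
Hba-a1: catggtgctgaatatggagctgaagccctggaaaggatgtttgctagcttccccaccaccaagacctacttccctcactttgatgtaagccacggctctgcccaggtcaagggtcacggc
Hba-x: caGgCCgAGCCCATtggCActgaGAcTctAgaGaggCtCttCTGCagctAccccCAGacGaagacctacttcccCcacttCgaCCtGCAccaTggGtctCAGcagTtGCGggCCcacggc
Hbb-bs: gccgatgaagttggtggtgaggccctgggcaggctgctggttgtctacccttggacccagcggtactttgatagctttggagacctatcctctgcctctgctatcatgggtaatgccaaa
Hbb-y: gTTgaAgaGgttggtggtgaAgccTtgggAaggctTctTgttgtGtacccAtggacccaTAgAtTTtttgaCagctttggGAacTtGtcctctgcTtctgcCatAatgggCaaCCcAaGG
Hbb-bh1: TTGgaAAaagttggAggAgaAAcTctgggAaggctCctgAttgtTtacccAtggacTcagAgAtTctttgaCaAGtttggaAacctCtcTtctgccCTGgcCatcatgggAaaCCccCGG
In this stretch Hba-x differed from Hba-a1 at 46 of 120 bases, and Hbb-y and Hbb-bh1 differed from Hbb-bs at 30 and 35 bases. Over the whole coding sequence Hba-a1 and Hba-a2 differed at 1 of 429 bases, and Hbb-bs and Hbb-bt at 1 of 444. Of all 150-base windows of the Hba-a1 transcripts 48.4% also occur in Hba-a2, and of those of Hba-a2 65.7% occur in Hba-a1. The shares are 58.7% of Hbb-bs windows in Hbb-bt and 50.7% of Hbb-bt windows in Hbb-bs. No embryonic globin shared a 50-base window with an adult globin. The division of reads within each adult pair is therefore uncertain, since the treatment of reads that match 2 genes is not given in the sources used here, whereas reads of the embryonic genes can be told from those of the adult genes. Whether counting used the strand is not given either, so reads of antisense transcripts cannot be told from those of the genes.

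The genes occupy 2 clusters and 2 lone sites of GRCm38. The alpha cluster on the plus strand of chromosome 11 holds Hba-x (32276400 to 32278116), Hba-a1 (32283511 to 32284465) and Hba-a2 (32296489 to 32297298). On the minus strand of chromosome 7 lie Hbb-y (103851749 to 103853216), Hbb-bh1 (103841637 to 103843164), Hbb-bs (103826534 to 103828096) and Hbb-bt (103812524 to 103813996). Alas2 lies on the plus strand of chromosome X (150547375 to 150570638) and Epb42 on the minus strand of chromosome 2 (121017891 to 121037072). Since several of these genes moved together, the 120 bases before the RefSeq start (GRCm38.p6) are shown for 1 adult and 1 embryonic gene of each cluster and for Alas2. Capitals mark matches, on either strand, to the core letters of the TATA box (TATAA), to those of the CCAAT box (CCAAT), to those of sites for KLF factors (CACCC) and to those of sites for GATA factors (GATAA).
Hba-a1, chr11:32283552-32283671, plus strand: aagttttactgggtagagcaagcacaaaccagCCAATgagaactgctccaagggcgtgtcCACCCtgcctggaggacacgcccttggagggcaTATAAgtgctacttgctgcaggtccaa
Hba-x, chr11:32276480-32276599, plus strand: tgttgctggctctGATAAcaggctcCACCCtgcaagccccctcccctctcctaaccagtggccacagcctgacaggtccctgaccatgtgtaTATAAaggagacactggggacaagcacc
Hbb-bs, chr7:103827929-103828048, minus strand: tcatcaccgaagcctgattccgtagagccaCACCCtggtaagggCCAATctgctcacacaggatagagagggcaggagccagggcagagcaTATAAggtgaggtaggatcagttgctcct
Hbb-y, chr7:103853208-103853327, minus strand: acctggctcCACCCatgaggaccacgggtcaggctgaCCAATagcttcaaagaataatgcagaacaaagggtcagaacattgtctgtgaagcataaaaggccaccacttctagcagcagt
Alas2, chrX:150547297-150547416, plus strand: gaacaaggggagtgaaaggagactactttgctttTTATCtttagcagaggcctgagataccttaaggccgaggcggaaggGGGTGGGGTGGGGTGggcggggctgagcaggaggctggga
The RefSeq table held a promoter for 8 of the 9 genes. For the 5 genes shown the RefSeq start lies inside the gene extent given above, so their windows fall wholly or partly within it. Distances are counted from the RefSeq start. TATAA began 27 bases before the start in Hba-a1, 28 in Hba-x and 29 in Hbb-bs, and these letters are not in this window of Hbb-y or Alas2. CACCC was found in all 5 windows shown, at 1 place in each globin gene and at 3 places in Alas2. CCAAT was in the windows of Hba-a1, Hbb-bs and Hbb-y, and GATAA in those of Hba-x and Alas2. Of all 32851 promoters in the table, 11.8% held TATAA in the same 120 bases, 21.3% CCAAT, 31.7% CACCC and 10.5% GATAA. The window of Epb42 held none of the 4 words. These matches describe the letters only.

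Adult globin transcripts were higher in the Gpr124−/− libraries. Levels are given in the order of replicates 1 to 4. Hba-a1, the most abundant member in all 12 libraries, was at 4280, 3830, 3930 and 3351 TPM in the wild-type libraries, 3782, 3460, 2279 and 3151 TPM in Gpr124ΔC/ΔC and 9069, 20658, 6894 and 13855 TPM in Gpr124−/−. Gpr124−/− replicate 2 was the highest and replicate 3 the lowest of that genotype, and even the latter lay above all 8 other libraries. Means were 3848 ± 383 TPM (SD, n = 4) in wild type, 3168 ± 646 in Gpr124ΔC/ΔC and 12619 ± 6097 in Gpr124−/−. From the counts, Hba-a1 was 3.23-fold higher in Gpr124−/− than in wild type (log2 fold change 1.69, standard error 0.32, adjusted p = 0.00214, by the quasi-likelihood test of edgeR, with all p-values adjusted by Benjamini-Hochberg). By TPM it lay between rank 2 and rank 4 among all genes in the Gpr124−/− libraries and between rank 11 and rank 25 in the others. In bulk samples, a larger number of cells of a type and more RNA per cell cannot be told apart.

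Hba-a2, the other adult alpha gene, was at 2401, 1199, 2321 and 519 TPM in the wild-type libraries, 1296, 2073, 777 and 981 TPM in Gpr124ΔC/ΔC and 5333, 11331, 3543 and 6959 TPM in Gpr124−/−. Wild type was uneven, with replicate 4 far below replicates 1 and 3, but no Gpr124−/− library overlapped another genotype. In Gpr124−/− against wild type it gave a log2 fold change of 2.06 (standard error 0.50, adjusted p = 0.0103, edgeR). Hba-a2 made up between 13.4% and 37.5% of adult alpha TPM over the libraries. Its share was 27.6% ± 11.2 (SD, n = 4) in wild type and 35% ± 1.62 in Gpr124−/− (exact two-sided permutation p = 0.4). Because the pair shares most of its coding bases, the sum of both genes is the firmer measure. That sum was 3.47-fold higher in Gpr124−/− than in wild type (log2 fold change 1.79, standard error 0.34, adjusted p = 0.00217, edgeR).

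The adult beta genes followed the same pattern. Hbb-bs was at 2673, 1915, 2642 and 1635 TPM in the wild-type libraries, 2033, 2418, 1426 and 1857 TPM in Gpr124ΔC/ΔC and 6121, 12699, 4441 and 8410 TPM in Gpr124−/−. Hbb-bt was at 1802, 1451, 1792 and 1129 TPM in the wild-type libraries, 1525, 1658, 836 and 1156 TPM in Gpr124ΔC/ΔC and 3881, 7646, 2650 and 4754 TPM in Gpr124−/−. For each gene the lowest Gpr124−/− library, replicate 3, lay above the highest library of the other genotypes. The log2 fold change in Gpr124−/− against wild type was 1.82 for Hbb-bs (standard error 0.31, adjusted p = 0.0012, edgeR) and 1.59 for Hbb-bt (standard error 0.33, adjusted p = 0.00422, edgeR). The 2 genes summed were 3.32-fold higher (log2 fold change 1.73, standard error 0.32, adjusted p = 0.00186, edgeR).

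Alas2 and Epb42, the members outside the globin family, rose as well in Gpr124−/−. Alas2 was at 38.7, 30.9, 43.3 and 16.1 TPM in the wild-type libraries, 19, 32.8, 18.5 and 17.5 TPM in Gpr124ΔC/ΔC and 101, 172, 77.8 and 145 TPM in Gpr124−/−. The Gpr124−/− libraries did not overlap the others, and Gpr124ΔC/ΔC replicate 2 stood above the other 3 of its genotype. In Gpr124−/− against wild type it gave a log2 fold change of 1.91 (standard error 0.34, adjusted p = 0.00143, edgeR). Epb42 was scarce, at 0.403, 0.733, 0.417 and 0.421 TPM in the wild-type libraries, 0.24, 0.906, 0.99 and 0.458 TPM in Gpr124ΔC/ΔC and 1.4, 2.87, 1.02 and 3.51 TPM in Gpr124−/−. These values rest on 8 to 26 reads per library in wild type and Gpr124ΔC/ΔC and on 40 to 116 in Gpr124−/−. The Gpr124−/− values again lay above all others, though replicate 3 only just, at 1.02 against 0.99 TPM in Gpr124ΔC/ΔC replicate 3. Relative to wild type, Epb42 gave a log2 fold change of 2.11 (standard error 0.48, adjusted p = 0.00715, edgeR).

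**Figure D1:**
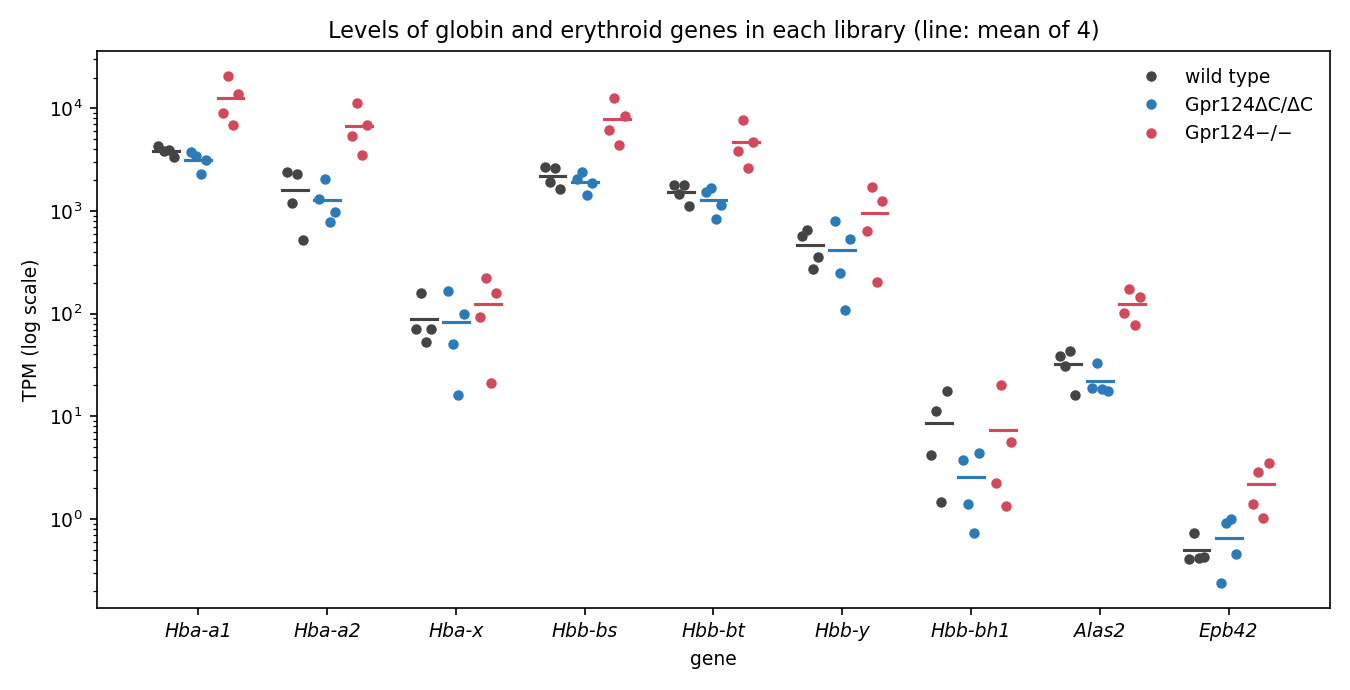
Level of each gene in TPM (log scale) in each of the 12 libraries, with genes along the horizontal axis, 1 point per embryo and a line at the mean of the 4 libraries of a genotype. In the 4 adult globins, Alas2 and Epb42 the 4 Gpr124−/− points lie above all others, whereas in Hba-x, Hbb-y and Hbb-bh1 the genotypes overlap.

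The embryonic globins varied more between embryos of a genotype than between genotypes. Hbb-y, the main embryonic beta-like gene, was at 570, 654, 275 and 359 TPM in the wild-type libraries, 796, 250, 108 and 530 TPM in Gpr124ΔC/ΔC and 639, 1707, 205 and 1264 TPM in Gpr124−/−. Each genotype held high and low embryos, with Gpr124−/− replicate 3 below all 4 wild-type libraries and Gpr124−/− replicates 2 and 4 above all 8 others. Its log2 fold change in Gpr124−/− against wild type was 1.0, with a standard error of 0.67 (adjusted p = 0.355, edgeR). Hba-x was at 71.2, 159, 52.7 and 70.7 TPM in the wild-type libraries, 167, 50.9, 16.2 and 99.8 TPM in Gpr124ΔC/ΔC and 91.8, 221, 21.3 and 159 TPM in Gpr124−/−. It ran low and high in the same embryos as Hbb-y in each mutant, and its log2 fold change was 0.43 with a standard error of 0.73 (adjusted p = 0.746, edgeR). Hbb-bh1 was near the limit of detection, at 4.19, 11.2, 1.47 and 17.6 TPM in the wild-type libraries, 3.71, 1.39, 0.729 and 4.36 TPM in Gpr124ΔC/ΔC and 2.26, 20.2, 1.35 and 5.61 TPM in Gpr124−/−. Its counts were 2 to 71 reads per library, and the log2 fold change was -0.27 with a standard error of 0.84 (adjusted p = 0.873, edgeR). With such spread no difference was detectable for single embryonic genes, and the 3 genes summed gave a log2 fold change of 0.88 (standard error 0.68, adjusted p = 0.43, edgeR).

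In all, 6 of the 9 genes were called higher in Gpr124−/− than in wild type and none lower, where a call needs an adjusted p below 0.05 and a log2 fold change beyond 1 in either direction. Over all tested genes 5.67% were called higher and 4.21% lower. The same 6 genes were those in which every Gpr124−/− library exceeded every wild-type library, which was so for 11.1% of all tested genes. The median log2 fold change was 1.69 over the 9 genes and -0.01 over all genes tested. The calls depended on how letter M was treated. Adding the letter to the model cut calls over all 16637 tested genes from 944 to 495 higher and from 700 to 351 lower. With the letter as a term of the model, 0 of the 9 genes were called by edgeR's quasi-likelihood test, with log2 fold changes of the 6 between 1.07 and 1.70, and without the 3 letter M libraries Hbb-bs alone was called. In the latter fit the lone Gpr124−/− library is assumed to vary like the other groups. Within letter K, the only letter with both genotypes, 1 Gpr124−/− embryo exceeded 1 wild-type embryo by 2.24-fold for Hba-a1, 2.24-fold for Hbb-bs, 2.26-fold for Alas2 and 3.26-fold for Epb42, on the scale of CPM (counts scaled to library total). In the same pair the embryonic genes Hbb-y and Hba-x were 2.25-fold and 1.69-fold higher, so this pair does not set adult globins apart from embryonic ones. Genotype and letter M cannot be told apart beyond that pair of embryos.

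In Gpr124ΔC/ΔC against wild type none of the 9 genes was called, where 0.890% of all tested genes were called higher and 1.03% lower. None of the 9 had an unadjusted p under 0.05 in edgeR, and DESeq2 and limma also called 0. Log2 fold changes of the adult globins lay between -0.39 and -0.26 with standard errors of 0.31 to 0.48, and the largest, -1.76 for Hbb-bh1, had a standard error of 0.93 and rests on 2 to 71 reads per library. Alas2 gave -0.64 (standard error 0.34, adjusted p = 0.444, edgeR) and Epb42 0.25 (standard error 0.51, adjusted p = 0.93, edgeR). Within letter J the ratio of Gpr124ΔC/ΔC to wild type in CPM was 0.87 for Hba-a1 and 0.94 for Hbb-bs, and within letter L it was 0.755 and 0.935. The ratios were uneven over the members, since within letter L, which holds 1 wild-type embryo, Hba-a2 was at 1.58, Epb42 at 1.59 and Hbb-bh1 at 0.136.

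Against Gpr124ΔC/ΔC, Gpr124−/− cells again had higher levels of the 4 adult globins, Alas2 and Epb42. This made 6 of 9 genes called higher and none lower, where 2.67% of all tested genes were called higher and 1.94% lower. Log2 fold changes were 2.03 for Hba-a1, 2.45 for Hba-a2, 2.08 for Hbb-bs, 1.90 for Hbb-bt and 2.55 for Alas2, with standard errors of 0.32 to 0.51 and adjusted p from 0.00101 to 0.0102 in edgeR. Epb42 was the least certain, at 1.86 with a standard error of 0.48 (adjusted p = 0.03, edgeR). Leaving out Gpr124ΔC/ΔC replicate 1 or 4 or Gpr124−/− replicate 2 or 4 ended its call, with adjusted p of 0.0637, 0.09, 0.0877 and 0.0987. This comparison uses the same Gpr124−/− libraries as the one with wild type, so it is no second measurement of them. The mutants share no label letter, so a fit with the letter compares them only through wild-type libraries. With the letter as a term 0 of the 9 genes were called by edgeR. In that fit 160 of all 16637 tested genes were called higher and 49 lower, against 444 and 322 without the term.

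**Figure D2:**
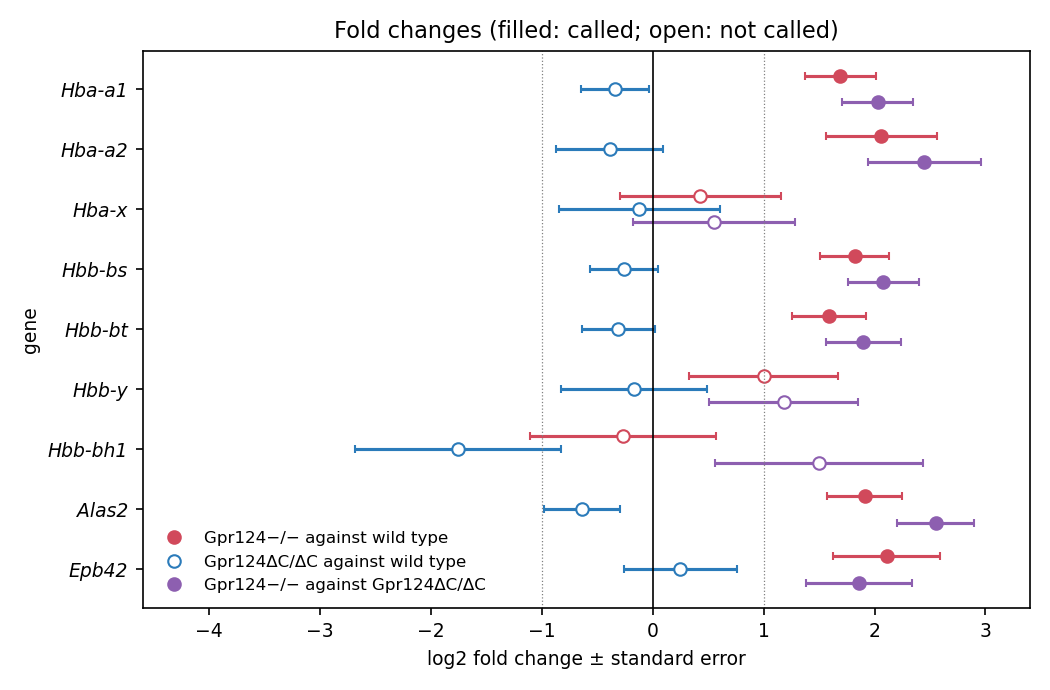
Log2 fold change of each gene in the 3 comparisons, with bars of 1 standard error from the edgeR fit and dotted lines at the threshold of 1. Filled points are called and open points are not. The 4 adult globins, Alas2 and Epb42 are filled in both comparisons of Gpr124−/−, and the points for Gpr124ΔC/ΔC against wild type are all open.

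Shares within a cluster ask whether the mix of embryonic and adult globins differed, whatever the total. Hbb-y and Hbb-bh1 together made up 11.4, 16.5, 5.88 and 12% of beta-like TPM in wild type, 18.4, 5.82, 4.57 and 15.1% in Gpr124ΔC/ΔC and 6.02, 7.82, 2.83 and 8.8% in Gpr124−/−. The share ran from 2.83% to 18.4% over the 12 embryos, and no genotype stood apart. Means were 11.4% ± 4.35 (SD, n = 4) in wild type, 11% ± 6.8 in Gpr124ΔC/ΔC and 6.37% ± 2.63 in Gpr124−/−. The difference of -5.06 percentage points between Gpr124−/− and wild type gave an exact two-sided permutation p = 0.114, and the 2 embryos of letter K were at 6.02% and 5.88%. Hba-x made up 1.05, 3.06, 0.835 and 1.79% of alpha-like TPM in wild type, 3.18, 0.912, 0.527 and 2.36% in Gpr124ΔC/ΔC and 0.634, 0.686, 0.204 and 0.76% in Gpr124−/−. All 4 Gpr124−/− embryos were below all 4 wild-type embryos, and Gpr124ΔC/ΔC spanned both. The mean share was 1.69% ± 1.01 in wild type and 0.571% ± 0.25 in Gpr124−/−, with an exact two-sided permutation p = 0.0286, the smallest that 4 against 4 can give. Adjusted over the 15 tests of 5 measures in 3 comparisons, this p became 0.0714. In letter K the shares were 0.634% and 0.835%. Without wild-type replicate 2 the differences were -3.37 percentage points in the beta-like and -0.657 in the alpha-like share, and without wild-type replicate 3 the beta-like difference was -6.91 (exact permutation p = 0.0286, the smallest that 3 against 4 can give). Gpr124ΔC/ΔC differed from wild type by -0.475 percentage points in the beta-like share and 0.0579 in the alpha-like share (exact two-sided permutation p = 0.886 and 0.914).

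The embryonic shares of the alpha-like and the beta-like cluster ran in parallel. The highest beta-like and alpha-like shares were found in wild-type replicate 2 and Gpr124ΔC/ΔC replicate 1, and the lowest of each genotype were wild-type replicate 3, Gpr124ΔC/ΔC replicate 3 and Gpr124−/− replicate 3. The first 2 are the libraries with the large share of Gm23935, and whether that bears on the embryonic share was not tested. Hbb-bh1 gave only 0.352% to 4.68% of the embryonic beta-like TPM, so Hbb-y set the beta-like share in every library.

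The balance of the adult beta pair varied less between embryos than that of the adult alpha pair given above. Hbb-bt made up 40.3, 43.1, 40.4 and 40.8% of adult beta TPM in wild type, 42.9, 40.7, 37 and 38.4% in Gpr124ΔC/ΔC and 38.8, 37.6, 37.4 and 36.1% in Gpr124−/−. The Gpr124−/− values lay below all wild-type values, with a mean difference of -3.69 percentage points (exact two-sided permutation p = 0.0286, adjusted p = 0.0714). This share rests on reads that can match either gene. The log2 ratio of summed alpha-like to summed beta-like TPM was 0.42, 0.36, 0.42 and 0.33 in wild type, 0.27, 0.37, 0.37 and 0.25 in Gpr124ΔC/ΔC and 0.45, 0.55, 0.52 and 0.54 in Gpr124−/−. Alpha-like transcripts thus exceeded beta-like transcripts in every library, by 1.19-fold to 1.46-fold. The mean log2 ratio was higher by 0.13 in Gpr124−/− than in wild type and by 0.20 than in Gpr124ΔC/ΔC, without overlap (exact two-sided permutation p = 0.0286 and adjusted p = 0.0714 for each). In letter K it was higher by 0.03 in the Gpr124−/− embryo, and the Hbb-bt share was lower there, with a difference of -1.61 points. Gpr124ΔC/ΔC differed from wild type by -1.44 points in the Hbb-bt share and -0.07 in the log2 ratio (exact two-sided permutation p = 0.4 and 0.171). Taken from read counts in place of TPM, the log2 ratio again differed by -0.07, but with p = 0.0286 in the exact permutation test.

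**Figure D3:**
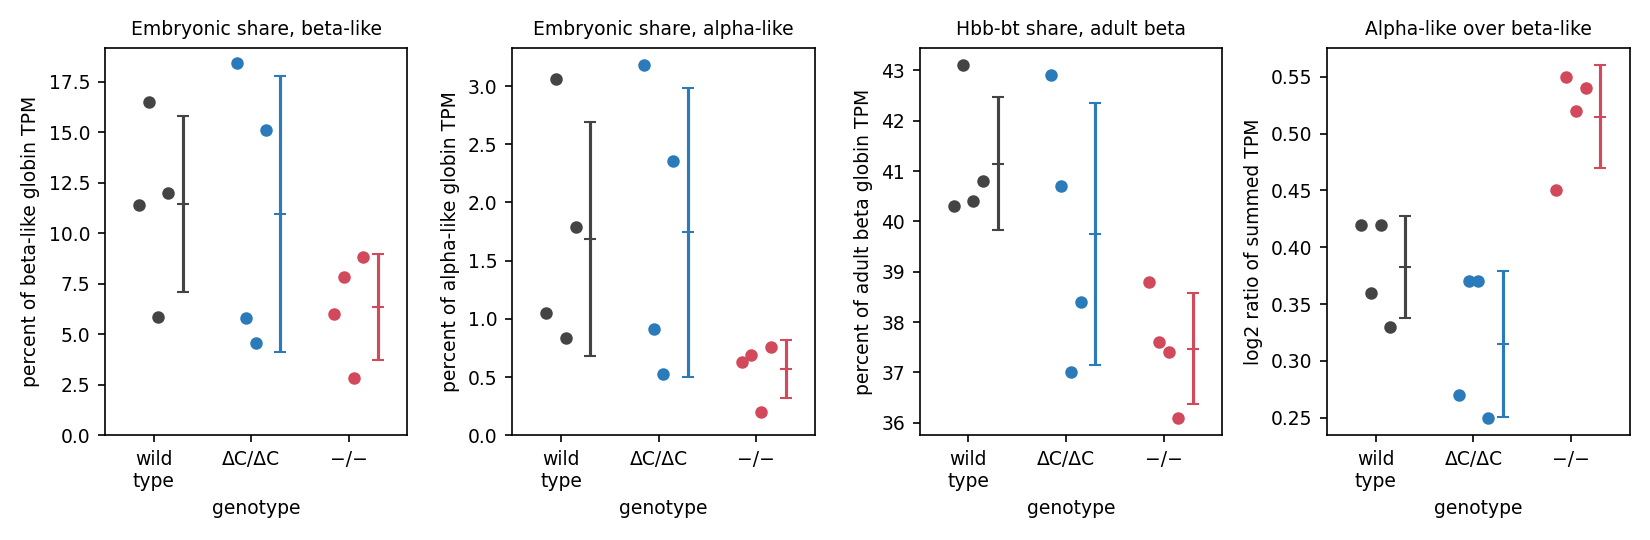
From left to right, the embryonic share of beta-like TPM, the embryonic share of alpha-like TPM, the Hbb-bt share of adult beta TPM (percent) and the log2 ratio of alpha-like to beta-like TPM, by genotype, with 1 point per embryo and bars at the mean ± SD (n = 4). The axes of the last 2 panels do not start at 0. The embryonic beta-like share overlaps between all genotypes, and the alpha-like share of Gpr124−/− embryos stays between 0.204% and 0.76%.

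The 7 globins together took a small part of the read counts of each library. They made up 0.259% ± 0.0527 (SD, n = 4) of the counts on genes in wild type, 0.217% ± 0.0693 in Gpr124ΔC/ΔC and 0.858% ± 0.438 in Gpr124−/−. Single Gpr124−/− libraries held 0.644%, 1.45%, 0.436% and 0.9%, each above the highest of the other genotypes, 0.305%. The exact two-sided permutation p was 0.0286 against wild type and against Gpr124ΔC/ΔC (adjusted p = 0.0714 for each). On the TPM scale, which accounts for gene length, the 9 genes summed to 7098 to 11840 in wild type and 5462 to 9946 in Gpr124ΔC/ΔC. In Gpr124−/− they summed to 17834 to 54457 TPM. Library sizes and factors computed without the 9 genes gave the same counts of calls, 6 against wild type and 6 against Gpr124ΔC/ΔC.

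Other globin genes were mostly at low levels. Hbq1b, a theta globin gene of the alpha cluster whose product is little studied, had a mean of 5.82 TPM in wild type, 8.71 in Gpr124ΔC/ΔC and 69.7 in Gpr124−/−. It rose in Gpr124−/− with a log2 fold change of 3.57 against wild type (standard error 0.58, adjusted p = 0.000716, edgeR). Its high levels were those of letter M, at 48.9 to 108 TPM, whereas in letter K the Gpr124−/− embryo had 16.2 TPM and the wild-type embryo 9.56. Cytoglobin, Cygb, gave 0.77 (standard error 0.49, adjusted p = 0.33, edgeR). Hbq1a and Hbb-bh0 did not pass the filter on low counts, with mean TPM of 1.61 and 5.45 over the 12 libraries.

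Red cell membrane genes moved upwards in Gpr124−/− in part. For this and the later lists, 5.67% of all tested genes were called higher and 4.21% lower against wild type. Of 14 tested genes of this list 6 were called higher and none lower against wild type, with a median log2 fold change of 1.20. They included Gypc, a glycophorin (63 TPM in wild type, 199 in Gpr124−/−, log2 fold change 1.62), Aqp1, a water channel (5.68 and 81.9 TPM, 3.79), Add2, beta-adducin (3.46 and 13.1 TPM, 1.89) and Sptb, beta-spectrin (0.583 and 1.4 TPM, 1.24). Gypc, Aqp1 and Add2 are also made outside red cells. In Gpr124−/− replicate 1, the library outside letter M, Gypc (137 TPM), Aqp1 (38.6) and Add2 (8.73) were above all wild-type libraries, whereas Sptb was at 0.555 TPM, within the wild-type range of 0.507 to 0.663, against 1.08 to 2.07 in letter M. Tspo2, also called, had a mean of 1.45 TPM in Gpr124−/−. Slc4a1 (band 3), the main anion exchanger of red cells and the partner of protein 4.2, was at 3.09 TPM in wild type and 4.86 in Gpr124−/− (log2 fold change 0.61, adjusted p = 0.173, edgeR). Epb41, Dmtn and Rhd gave -0.30, 0.36 and 0.56 and were not called. Against Gpr124ΔC/ΔC 5 genes were called higher, among them Slc4a1 (1.10), and in Gpr124ΔC/ΔC against wild type none was called. Gypc there passed the p threshold but not the fold threshold (0.82, adjusted p = 0.0162, edgeR), with 97.4 to 136 TPM in Gpr124ΔC/ΔC against 60.5 to 65.4 in wild type. The whole list summed to 102 to 114 TPM in wild type, 151 to 183 in Gpr124ΔC/ΔC and 222 to 432 in Gpr124−/−, without overlap.

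Genes of heme synthesis and iron uptake did not move as one group. Of 14 tested, 1 was called higher in Gpr124−/− than in wild type and 3 were called lower, with a median log2 fold change of -0.19. The mitochondrial iron importer Slc25a37 was higher (7.46 TPM in wild type, 15.3 in Gpr124−/−, log2 fold change 1.01). The transferrin receptor Tfrc was lower (288 and 19.2 TPM, -3.95), as were the endosomal ferrireductase Steap3 (28.8 and 4.5 TPM, -2.72) and Alas1 (103 and 47 TPM, -1.17), the form of the enzyme used outside the erythroid lineage. Fech, which inserts iron into heme, gave 0.60 (adjusted p = 0.0047, edgeR) and stayed below the fold threshold, and Alad and Urod gave -0.23 and -0.28. In Gpr124ΔC/ΔC against wild type Tfrc (-1.79) and Steap3 (-1.13) were called lower and none higher.

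Among genes of red cell maturation and enzymes 5 of 14 were called higher in Gpr124−/− than in wild type and 2 were called lower, with a median log2 fold change of 0.55. Among those higher were Mkrn1, a ubiquitin ligase (1.37), Ube2o, a ubiquitin conjugating enzyme that clears the contents of reticulocytes (1.5), Tent5c, a poly(A) polymerase (2.22), and Trim58, a ubiquitin ligase of late erythroblasts (1.74), whose adjusted p lay just under the threshold. In Gpr124−/− replicate 1 Trim58 (0.395 TPM) was within the wild-type range, and Mkrn1 (38.3 TPM) and Ube2o (10.9 TPM) were just above the wild-type maxima of 36.2 and 10.5. In letter M they were at 1.89 to 3.44, 82.2 to 111 and 26.3 to 35.5 TPM. Tent5c was at 8.09 TPM in replicate 1, at 14.6 to 28.6 in letter M and at most 4.51 in wild type. Lower were Car2, carbonic anhydrase 2, at 461 TPM in wild type and 55.2 in Gpr124−/− (-3.11), and Blvrb, biliverdin reductase B (46.1 and 17.3 TPM, -1.45). Car2 (-1.68) and Blvrb (-1.12) were also called lower in Gpr124ΔC/ΔC, where no gene of the list was called higher. Prdx2, Bnip3l and Bpgm gave 0.27, -0.32 and -0.02 in Gpr124−/− and were not called. Ahsp was not analysed here.

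Of 14 tested regulators of erythroid and globin genes, 3 were called higher in Gpr124−/− against wild type and none lower, with a median log2 fold change of 0.38. These were Gata1 (14.3 TPM in wild type, 92 in Gpr124−/−, log2 fold change 2.68), Nfe2 (19 and 89.5 TPM, 2.22) and Gfi1b (8.45 and 41.4 TPM, 2.28), transcription factors shared by the erythroid and the megakaryocyte lineage. Their high levels were those of the letter M libraries. There Gata1 was at 83.4 to 136 TPM, Nfe2 at 82.1 to 130 and Gfi1b at 36.2 to 61.4, whereas Gpr124−/− replicate 1 had 23, 26.3 and 9.55 TPM, against wild-type maxima of 20.1, 24.6 and 13.4. Klf1, the erythroid factor of the adult beta globin promoter, did not pass the filter and averaged 0.212 TPM in wild type and 1.12 in Gpr124−/−. Bcl11a, which silences embryonic globins, was at 1.3 and 1.8 TPM (0.42, adjusted p = 0.266, edgeR). Lmo2, Ldb1 and Epor gave -0.84, 0.56 and 0.34 and were not called. In Gpr124ΔC/ΔC against wild type none was called.

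These 4 erythroid lists leave out the 9 genes. Of their 56 tested genes, 15 were called higher and 5 lower in Gpr124−/− than in wild type. Over all tested genes the shares were 5.67% and 4.21%. In Gpr124ΔC/ΔC against wild type the counts were 0 higher and 4 lower (0.890% and 1.03% of all tested genes). In Gpr124−/− against Gpr124ΔC/ΔC they were 12 higher and 3 lower (2.67% and 1.94% of all tested genes). With the letter as a term, 4 of the 56 genes were called higher and 5 lower against wild type. In that fit 495 of all 16637 tested genes were called higher and 351 lower. Of 14 tested genes of heme breakdown and iron export, 0 were called higher in Gpr124−/− than in wild type and 3 were called lower, with a median log2 fold change of 0.03. Heph, a ferroxidase, passed the p threshold but not the fold threshold (14.3 and 26.8 TPM, 0.87, adjusted p = 0.00246, edgeR). The 3 were ferritin heavy chain Fth1 (11120 TPM in wild type, 2985 in Gpr124−/−, -1.94), the iron exporter Slc40a1 (560 and 92.3 TPM, -2.65) and the transporter Flvcr2 (239 and 28.9 TPM, -3.10). All 3 were also called lower in Gpr124ΔC/ΔC, at -1.40, -1.04 and -1.24. Heme oxygenase 1, Hmox1, the inducible enzyme that breaks heme open, gave -0.18 (adjusted p = 0.392, edgeR), Hmox2 gave 0.38 (adjusted p = 0.0159, edgeR) and Ftl1 0.23. None of these 3 was called.

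**Figure D4:**
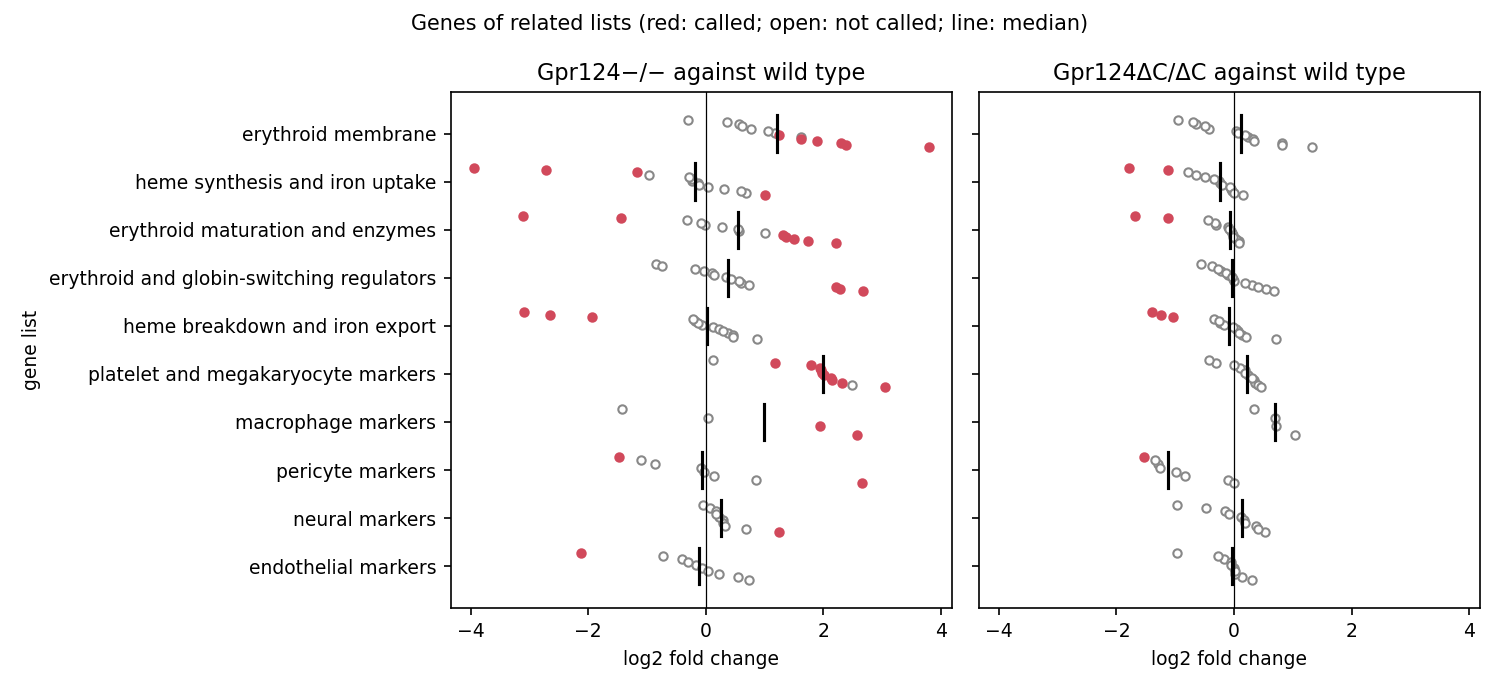
Log2 fold changes of the tested genes of 10 lists against wild type, in Gpr124−/− on the left and Gpr124ΔC/ΔC on the right, with 1 point per gene, red where called, and a line at the list's median. The 9 genes and the other globins are not drawn. Of the 10 lists drawn, platelet markers have the highest median in Gpr124−/−, at 2.0. The leftmost point is Tfrc (-3.95) and the rightmost is Aqp1 (3.79).

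Summed platelet markers were above all other libraries in the 3 Gpr124−/− libraries of letter M. Of 12 platelet and megakaryocyte markers 10 were called higher in Gpr124−/− against wild type, with a median log2 fold change of 2.0, and none in Gpr124ΔC/ΔC. Itga2b, an integrin of platelets, was at 30.2 TPM in wild type and 151 in Gpr124−/−, Pf4, a platelet chemokine, at 157 and 606, and Tubb1, the platelet tubulin, at 83.8 and 375. Treml1 (1.96), Ppbp (1.18) and Gp1ba (2.12) were higher too, whereas Clec1b (0.13) and Gp1bb (2.48, adjusted p = 0.115, edgeR) were not called. The summed level of the list ran from 396 to 741 TPM in wild type, 538 to 712 in Gpr124ΔC/ΔC and 714 to 2555 in Gpr124−/−. Its part in the globin result was not tested. In Gpr124−/− replicate 1 platelet markers summed to 342 CPM, within the wild-type range of 249 to 414 but above the 249 CPM of the wild-type embryo of the same letter, and its Pf4, at 316 TPM, was above all 8 libraries of the other genotypes. Its adult globins summed to 6097 CPM against 1748 to 2965 in wild type and 2753 in that embryo.

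Macrophage markers were low. Ptprc, which encodes the CD45 used in the gate, averaged 0.0226 TPM in wild type and 0.0137 in Gpr124−/−, and the 12 markers summed to 18.2 to 27.7 TPM in wild type, 28.3 to 44.4 in Gpr124ΔC/ΔC and 56.2 to 109 in Gpr124−/−. Of 4 tested 2 were called higher against wild type, P2ry12 (2.57) and Fcer1g (1.94), which platelets also express, and Mrc1 gave -1.42 without a call. Tyrobp, C1qb and C1qa did not pass the filter. In Gpr124−/− replicate 1 they were at 3.89, 6.84 and 5.16 TPM, and in the other 3 Gpr124−/− libraries at 0, at 0 to 1.05 and at 0 to 0.315 TPM. That library is also the one used for the comparison within letter K, and the part of these markers in it was not tested. Of 8 pericyte markers 1 was called higher (Abcc9, 2.66) and 1 lower (Rgs5, -1.47) against wild type, while Kcnj8, Higd1b, Vtn, Pdgfrb and Notch3 were not called, and the list summed to 37.6 to 87.6 TPM in wild type, 19.2 to 39.5 in Gpr124ΔC/ΔC and 37.5 to 46.4 in Gpr124−/−. In Gpr124ΔC/ΔC Higd1b was called lower (-1.54). Of 10 neural markers 1 was called higher (Stmn2, 1.25), Nes, Tubb3 and Neurod6 were not called, and the list summed to 149 to 231 TPM in wild type, 182 to 252 in Gpr124ΔC/ΔC and 235 to 270 in Gpr124−/−. Of 10 endothelial markers 1 was called lower, the tight junction gene Cldn5 (-2.12), and Esam, Egfl7 and Tie1 gave -0.30, 0.03 and -0.06. That list summed to 13002 to 16839 TPM in wild type, 8223 to 13575 in Gpr124ΔC/ΔC and 7334 to 8811 in Gpr124−/−, and without Cldn5 the other 9 markers averaged 6113, 6269 and 6119 TPM. Pecam1 (0.54, adjusted p = 0.00778), Cdh5 (0.74, adjusted p = 0.00169), Tek (-0.73, adjusted p = 0.00795) and Erg (-0.41, adjusted p = 0.00683, edgeR) passed the p threshold but not the fold threshold. What these shifts contribute to the globin levels was not tested.

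Adult globin levels were then set against other levels over libraries, on the log2 CPM scale. The 4 Gpr124−/− libraries, at 4422 to 14228 CPM of summed adult globins, lay apart from the other 8, at 1275 to 2965 CPM, so correlations were taken over the 8 wild-type and Gpr124ΔC/ΔC libraries, which share no embryo. These relations cannot be told apart from the label letter. The 3 letter L libraries had adult globins at 1275 to 1752 CPM against 2377 to 2965 in the other 5, Alas2 at 13.2 to 14 CPM against 17.8 to 35.7, and platelet markers at 358 to 414 CPM against 249 to 329. No letter holds enough libraries for a correlation of its own. None of the 7 relations passed the test over these 8 libraries after adjustment. The closest was that of Alas2 (Pearson r = 0.841, exact permutation p = 0.00818, adjusted over 7 relations p = 0.0573, and Spearman rho = 0.833, exact permutation p = 0.0154, adjusted p = 0.0538). Without the 2 libraries farthest from the median, Gpr124ΔC/ΔC replicate 3 and wild-type replicate 4, r was 0.835. With all 12 libraries and values centred within genotype, r was 0.853 (permutation p = 0.00132, adjusted p = 0.00924). Embryonic globins gave r = 0.627 and rho = 0.524 (exact permutation p = 0.0955 and 0.197, adjusted p = 0.223 and 0.34), and without the same 2 libraries r was 0.00529, so the relation rests on them. Over 12 centred libraries it was 0.773 (permutation p = 0.0185, adjusted p = 0.0649). Platelet markers gave a negative correlation over the 8 libraries (r = -0.785, exact permutation p = 0.0212, adjusted p = 0.074, and rho = -0.833, exact permutation p = 0.0154, adjusted p = 0.0538, with r = -0.852 without the 2 libraries). Over 12 centred libraries r for platelet markers was 0.23 (permutation p = 0.707, adjusted p = 0.707).

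The other 4 relations over the 8 libraries had r between -0.503 and -0.13. For Epb42, r was -0.362 and rho -0.714 (exact permutation p = 0.392 and 0.0576, adjusted p = 0.549 and 0.134), and r without the 2 libraries was -0.0967. For summed red cell membrane genes, r was -0.503 and rho -0.476 (exact permutation p = 0.208 and 0.243, adjusted p = 0.364 and 0.34), and r without the 2 was -0.655. Macrophage markers gave r = -0.17 and rho = -0.143 (exact permutation p = 0.689 and 0.752, adjusted p = 0.759 and 0.877), with -0.388 without the 2. Endothelial markers gave r = -0.13 and rho = 0.0714 (exact permutation p = 0.759 and 0.882, adjusted p = 0.759 and 0.882), with 0.0442 without the 2.

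**Figure D5:**
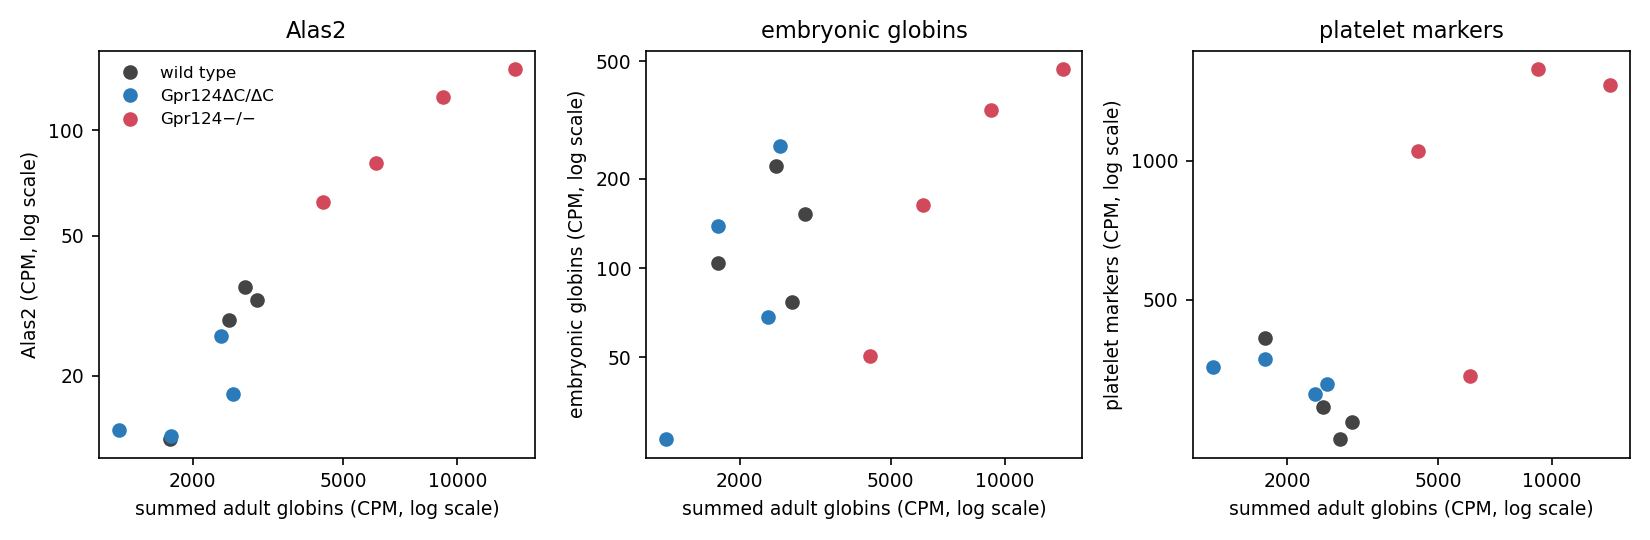
Alas2, summed embryonic globins and summed platelet markers (vertical axes, CPM, log scale) against summed adult globins (horizontal axes, CPM, log scale), with 1 point per library coloured by genotype. Alas2 runs from 13.2 to 149 CPM, and the 4 Gpr124−/− points are the highest on both axes of its panel. In the right panel 1 Gpr124−/− library has platelet markers at the level of the other genotypes, 342 CPM.

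Of the 10 genes outside the members whose log2 CPM ran most like that of summed adult globins over the 12 libraries, 8 are given here. They were Gng11 (Pearson r = 0.97), Gadd45g (0.96), Fech (0.954), Gng10 (0.951), Gmfg (0.949), Akr1b8 (0.94), Pdgfa (0.933) and Eif1 (0.932). These values describe the same libraries, which differ by genotype, and no test was made on them. By Spearman correlation Gng11, Gadd45g and Gng10 were again among the top 10. Gng11, a G protein gamma subunit, had means of 722 TPM in wild type and 1124 in Gpr124−/−, and Akr1b8, an aldo-keto reductase, had 0.601 and 7.37 TPM. Fech stands on the list of heme synthesis and iron uptake.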

How the data were processed

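Libraries were made from RNA of CD31+ forebrain cells of 12 embryos (PicoPure extraction, SMART-Seq V4, poly(A) RNA) and sequenced as paired reads of 150 bases on a HiSeq. The authors deposited per-gene read counts, not normalized, and TPM values for each library. The submitters' processing notes name bcl2fastq 2.17 and mm10. The aligner, counting program and strand setting are not given in the sources used here. TPM recomputed from counts and gene lengths deviated by at most 0.00498% from the deposited values. Of 49315 gene identifiers 49056 were matched to GENCODE vM21 symbols, and all 9 genes had the same extents in both. Counts on genes ran from 13877572 to 22551163 per library (median 16984382).

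Counts were tested with edgeR 4.0.16 in R 4.3.3 (quasi-likelihood test, TMM factors, genotype as the term, all 12 libraries, filter by expression with a minimum count of 10), with Benjamini-Hochberg adjustment over 16637 genes. Shares and ratios were compared by exact permutation tests over embryos, of which 4 against 4 allow 70 orders. Named from each list were up to 6 genes called in any comparison, those with the highest mean CPM first, and up to 3 others with the highest mean TPM. Named besides were the 10 genes most correlated with summed adult globins, and Tspo2, Trim58, Klf1, Bcl11a, Heph, Pecam1, Cdh5, Tek, Erg and Ptprc were added after their values were seen. Some genes that these rules name are not reported here, though they stay in the counts. The 9 genes and the lists were chosen with earlier results of these data known. The fits per gene were run on simulated counts with the same dispersion for every gene and no effect of the letter. That check does not cover the permutation tests or the sharing of genotype and letter. Alternatives were DESeq2 1.42.0, limma 3.58.1 on log2(TPM + 1) or log2(TPM + 0.1), upper-quartile factors, no filter, library sizes without the 9 genes, the embryo letter as a term, only 2 genotypes in the fit, and each library left out. Chosen after seeing the data were the Hba-a2 share, the sums of gene pairs, the fit without letter M, and the limit of correlations to 8 libraries, in place of the pooled 12. Sequences were read from GENCODE vM21 transcripts and RefSeq promoters. Python 3.11.15, scipy 1.17.1 and matplotlib 3.10.9 were used.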

Additional observations from a re-analysis of the deposited data

Results flagged for a closer look

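Of 48 groups of 4 libraries examined, 3 held a library whose gap to its nearest neighbour, divided by the range of the group, passed Dixon's critical value for groups of this size, and chance gives about 1 in 20 groups. Alas2 in Gpr124ΔC/ΔC replicate 2 was at 32.8 TPM against 17.5 to 19 in the other 3. In the same library Hba-a2 made up 37.5% of adult alpha TPM against 23.7% to 25.5% in the other 3. Epb42 in wild-type replicate 2 was at 0.733 TPM against 0.403 to 0.421 in the other 3.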

How the results depend on the processing

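Upper-quartile factors, no filter, DESeq2 and library sizes without the 9 genes gave the same counts of calls among the 9 genes in every comparison. With the embryo letter as a term 0 of the 9 were called in Gpr124−/− against wild type and 0 against Gpr124ΔC/ΔC, and without the letter M libraries 1 and 0. Fewer samples then carry each comparison, and genotype and letter are largely shared. For the other erythroid genes (56 tested, 57 without letter M and 63 without a filter), the counts of 20, 4 and 15 calls became 9 (Gpr124−/− against wild type) and 1 (against Gpr124ΔC/ΔC) with the letter, 9 and 0 without letter M, and, with limma on unfiltered TPM, 2 (Gpr124ΔC/ΔC against wild type) and 8 (Gpr124−/− against Gpr124ΔC/ΔC). The cause of the limma shift was not tested. The Epb42 call against Gpr124ΔC/ΔC was lost with only those 2 genotypes in the fit (adjusted p = 0.0561, edgeR) and with limma (adjusted p = 0.0795 to 0.111).

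Within letter K the differences were 0.149 points for the embryonic beta-like share, 0.03 for the log2 alpha to beta ratio and -1.61 points for the Hbb-bt share. From read counts the log2 ratio of Gpr124ΔC/ΔC against wild type was again -0.07, with an exact permutation p = 0.0286. Centred within genotype over 12 libraries, r with adult globins was 0.853 for Alas2, and turned positive for Epb42 (0.317), membrane genes (0.446), platelet markers (0.23) and macrophage markers (0.566). Low or uneven members changed sign: Hba-x in Gpr124−/− against wild type was -0.09 without letter M, Hbb-bh1 was 0.56 with the letter there and -0.26 against Gpr124ΔC/ΔC without letter M, and Hba-a2 in Gpr124ΔC/ΔC was 0.16 with the letter.

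With each library left out in turn, 6 to 6 members were called in Gpr124−/− against wild type, 0 to 0 in Gpr124ΔC/ΔC and 5 to 6 between the mutants, and 17 to 21, 4 to 5 and 11 to 20 other erythroid genes. Against wild type, log2 fold changes ran from -0.04 to 0.95 for Hba-x and -1.54 to 0.29 for Hbb-bh1 in Gpr124−/−, and from -0.84 to 0.40 for Hba-x and -0.81 to 0.16 for Hbb-y in Gpr124ΔC/ΔC. In the order Gpr124−/− against wild type, Gpr124ΔC/ΔC against wild type, and Gpr124−/− against Gpr124ΔC/ΔC, the embryonic beta-like share differed by -6.91 to -3.37, -2.94 to 1.65 and -6.71 to -2.12 points. The alpha-like share differed by -1.4 to -0.657, -0.421 to 0.517 and -1.58 to -0.695 points. The log2 ratio differed by 0.11 to 0.15, -0.09 to -0.05 and 0.18 to 0.22. The Hbb-bt share differed by -4.14 to -3.04, -2.49 to -0.526 and -3.16 to -1.2 points, the globin share of counts by 0.401 to 0.739, -0.0669 to -0.0138 and 0.443 to 0.781 points, and the Hba-a2 share by 2.66 to 10.6, -4.26 to 3.64 and 5.49 to 10.1 points. No paired analysis was possible because the labels name embryos by a letter and a number within it, and give no replicate number that pairs embryos of different genotypes (replicate numbers here follow accession order). The letter was used as a term instead. The 2 to 71 reads of Hbb-bh1 and 8 to 116 reads of Epb42 per library limit what can be said of these genes.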
